A study of Mus musculus with 6 samples.

Results

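The mouse mitochondrial genome is a small circle of DNA held in many copies inside the organelle, separate from the nuclear chromosomes. Its genes were chosen here by symbol, as all genes whose symbol begins with mt-. They number 37 and comprise 2 ribosomal RNAs (rRNAs), 13 messenger RNAs (mRNAs) and 22 transfer RNAs (tRNAs). The count table of 24984 genes held 19 of them, namely both rRNAs, all 13 mRNAs and 4 tRNAs. The other 18 tRNAs were not in it and were listed at 0 FPKM in every library. A low-count filter left 10 for testing, which were both rRNAs, 7 mRNAs and the tRNA mt-Tp. Of the remaining 9 in the count table, 7 had counts but did not pass the filter (6 mRNAs and mt-Tl1), and mt-Ti and mt-Tr had none.

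The libraries came from microglia, the brain's own macrophages, of male C57BL/6J mice aged 10 weeks. All animals received 2 µl of 1% lysolecithin (LPC), which removes myelin, into the corpus callosum, a fibre tract joining the hemispheres. Cells were collected 3 days (LPC day 3, 3 libraries) or 10 days (LPC day 10, 3 libraries) later, with 1 mouse behind each library as the design text gives it. Live CD11b+ Ly6G- CD3- CD45lo cells were sorted, and no uninjured animals were in the sample list, so every comparison is between the later and the earlier lesion.

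Library totals ran from 5890081 to 9212197 counts assigned to genes. The spread between libraries was wide, with a common biological coefficient of variation of 1.11 in edgeR. LPC day 10 replicate 3 stood apart, with a count for 10416 genes against 12691 to 16013 in the others. All 10 microglial markers were detected, with a summed level of 16535 to 17873 CPM (counts scaled to a common library size) at day 3 and 9577 to 34514 at day 10. Of 5 border macrophage markers, 4 were in the table and summed to 23.2 to 92.5 CPM at 3 days against 5.44 to 6.13 CPM at 10 days, and Lyve1, outside the count table, was listed at 0 FPKM throughout. Of 6 oligodendrocyte markers, 5 were in the table and summed to 26.4 to 34 CPM at day 3 and to 113, 71.6 and 15.5 CPM in day 10 replicates 1, 2 and 3, and Mog, outside the count table, was listed at 0 FPKM. The part of either in the results below was not tested.

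Both strands of the mitochondrial genome are transcribed by the polymerase Polrmt as long precursors that run through many genes. The tRNAs punctuate most of the rRNAs and mRNAs, and their excision by nuclear-encoded nucleases releases the separate transcripts. Of the mRNAs, 12 lie on 1 strand (called the heavy-strand transcripts) and mt-Nd6 lies on the other. The proteins are core subunits of respiratory complexes I, III, IV and ATP synthase, and all their partner subunits are imported from the cytosol. In microglia, as in other macrophages, respiration and glycolysis are known to be rebalanced on activation.

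Sequences that several mitochondrial mRNAs share with the nuclear genome are shown first, since the counts below are set beside them. Reads were 100 bp long, and the copies are annotated as pseudogenes, which arise by transfer of mitochondrial DNA into a chromosome. The first 100 bases of mt-Co2 (cytochrome c oxidase subunit II, complex IV; chrM:7013-7112, plus strand) are set beside the matching bases of its pseudogene Gm28661 (chr1:24615466-24615565, minus strand, GRCm38), since no letter differs. The second pair is mt-Nd3 (a complex I subunit; chrM:9459-9558, plus strand) and Gm28438 (chr1:24613020-24613119, minus strand), with the single differing base in capitals.
mt-Co2: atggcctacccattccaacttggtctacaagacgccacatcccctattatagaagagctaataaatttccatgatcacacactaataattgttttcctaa
Gm28661: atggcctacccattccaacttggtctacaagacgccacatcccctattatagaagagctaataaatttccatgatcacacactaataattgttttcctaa
mt-Nd3: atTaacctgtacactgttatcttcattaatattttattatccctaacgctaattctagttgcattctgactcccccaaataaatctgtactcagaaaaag
Gm28438: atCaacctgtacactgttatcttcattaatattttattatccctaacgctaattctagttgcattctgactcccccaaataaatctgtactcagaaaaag

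For contrast, mt-Nd6 (complex I; chrM:13971-14070, minus strand) and mt-Cytb (cytochrome b, complex III; chrM:14146-14245, plus strand) also have annotated nuclear relatives, Gm11408 (chr4:80003815-80003914, minus strand) and Gm11410 (chr4:80003990-80004089, plus strand). The differing bases, in capitals, number 3 for mt-Nd6 and 5 for mt-Cytb within these 100.
mt-Nd6: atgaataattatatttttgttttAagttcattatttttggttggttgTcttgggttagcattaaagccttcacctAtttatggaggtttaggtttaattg
Gm11408: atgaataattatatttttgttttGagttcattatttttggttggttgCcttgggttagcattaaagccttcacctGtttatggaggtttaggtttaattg
mt-Cytb: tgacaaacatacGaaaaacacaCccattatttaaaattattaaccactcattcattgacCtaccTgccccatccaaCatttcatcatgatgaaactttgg
Gm11410: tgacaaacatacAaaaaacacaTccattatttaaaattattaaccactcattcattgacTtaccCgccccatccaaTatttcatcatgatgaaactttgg

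The 13 mRNAs fell into 7 that were deeply read and 6 that were nearly empty. Summed over all 6 libraries, the 7 tested mRNAs had 20748 (mt-Nd6) to 631040 (mt-Co1) counts each. The 6 others had 2 (mt-Atp8), 4 (mt-Co3), 6 (mt-Nd4l), 15 (mt-Atp6), 20 (mt-Co2) and 27 (mt-Nd3). Complexes I and IV have subunits in both sets, both mitochondrially encoded subunits of ATP synthase (mt-Atp6 and mt-Atp8) are among the nearly empty ones, and mt-Cytb is among the others. Subunit I of complex IV (mt-Co1) had the most counts of all mRNAs, while subunits II and III of that enzyme were almost unread.

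Each mRNA was divided into all its windows of 100 bases, and each window was looked up in the annotated nuclear transcripts. An exact copy existed for 99.9% of the windows of mt-Co3, 99.5% of those of mt-Co2 and mt-Atp6, 98.5% for mt-Nd4l and 97.6% for mt-Nd3. Among the tested mRNAs the share was 60.8% for mt-Nd4, 30.8% for mt-Co1, 3.19% for mt-Nd2, and 0% for mt-Nd1, mt-Nd5, mt-Nd6 and mt-Cytb. Neither rRNA had such a window. The 5 mRNAs whose windows were nearly all copied were thus among the 6 nearly empty ones, and no tested mRNA exceeded the 60.8% of mt-Nd4. How reads with several matches were handled, and the counting program, are points not given in the sources used here, and so the part of the copies in the low counts was not tested.

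The exception was mt-Atp8, which encodes a small subunit of ATP synthase, had 2 counts and had no copied window. It lies at chrM:7766-7969, between mt-Co2 and mt-Atp6 and overlapping the latter. Their pseudogenes Gm28661 and Gm10925 are neighbours on chromosome 1 with 233 bases between them, and the copied parts of mt-Co2 and mt-Atp6 are also 233 bases apart on the mitochondrial genome. No genome sequence was used, so whether the bases between the pseudogenes copy mt-Atp8 was not looked up.

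The copies on chromosome 1 form a block of 7 annotated unprocessed pseudogenes, chr1:24611535-24616197 on the minus strand, 4663 bases in all. Read backwards along the chromosome it follows the mitochondrial order from the end of mt-Co1 (Gm29216) through mt-Co2 (Gm28661), mt-Atp6 (Gm10925), mt-Co3 (Gm28437), mt-Nd3 (Gm28438) and mt-Nd4l (Gm10222) to the first 876 bases of mt-Nd4 (Gm28439). The alignment of Gm29216 began at base 6390 of the mitochondrial genome and held 1 mismatch in 483 bases. That of Gm28439 ended at base 11042 with none. Further copies lie on chromosome 2, namely Gm13339 (of mt-Nd2, 96.67% identical over 510 bases), Gm13340 (of mt-Co1, 97.61% over 1545 bases) and Gm13341 (of mt-Co2).

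The pseudogenes themselves had few counts. The 7 on chromosome 1 together had 102, 58 and 142 counts in day 3 replicates 1, 2 and 3 and 389, 237 and 48 in the day 10 replicates, which is 8.18 to 17 CPM at 3 days against 40.3, 25.3 and 12.8 CPM at 10 days. In CPM, day 10 replicates 1 and 2 were higher than all day 3 libraries and replicate 3 lay within their range. For scale, mt-Co1 alone had 20385 to 208249 counts per library.

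**Figure D1:**
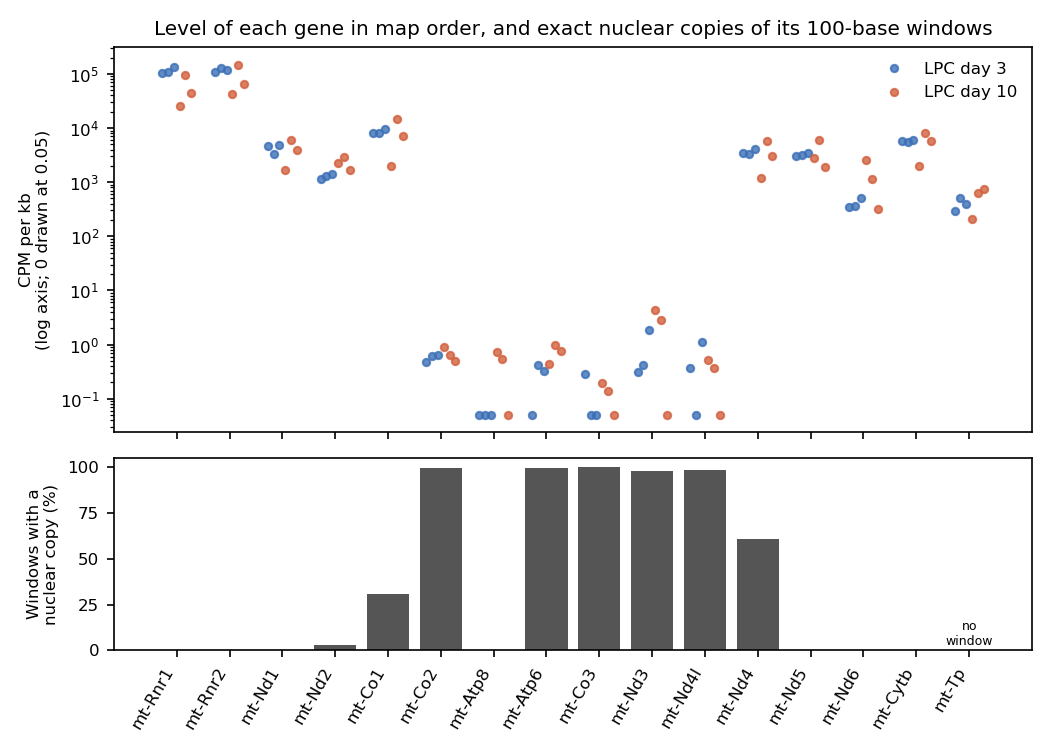
Upper panel, CPM per kb of gene in each library (log axis, zeros drawn at 0.05) for the rRNAs, the mRNAs and mt-Tp in map order, with LPC day 3 in blue and LPC day 10 in orange; lower panel, percent of each gene's 100-base windows with an exact copy among annotated nuclear transcripts. The 6 mRNAs from mt-Co2 to mt-Nd4l lie at or below 4.33, all others at or above 325 (mRNAs) or 211 (mt-Tp), and 5 of those 6 have copies for at least 97.6% of their windows.

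The 6 nearly empty mRNAs gave no comparison between the time points. Their counts ran from 0 to 10 in any library, the highest being mt-Nd3 with 1, 1 and 6 at day 3 and 10, 9 and 0 at day 10. The groups overlapped for all 6. A count of 0 allows up to 3 counts, or 0.326 to 0.509 CPM by unscaled totals, depending on the library. That limit covers counting error only. With the handling of reads with several matches not given, it applies to the counts and not to the amount of these mRNAs.

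The rRNAs dominated the mitochondrial pool. Libraries were made from polyadenylated RNA per the labels. Mitochondrial rRNAs carry short A tails, and the part of these tails in the rRNA share was not tested. Together mt-Rnr1 (the 12S rRNA of the small ribosomal subunit, chrM:70-1024) and mt-Rnr2 (the 16S rRNA of the large subunit, chrM:1094-2675) took 27.1%, 30.4% and 31.8% of all counts at 3 days against 9.32%, 32.9% and 14.5% at 10 days. The mRNAs took 3.53%, 3.4% and 3.98% at 3 days against 1.74%, 6.08% and 3.09% at 10 days. The day 10 libraries lay on both sides of the day 3 range in each class.

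All mitochondrially encoded RNA made up 33.4% ± 2.58 of counts at day 3 and 22.5% ± 14.6 at day 10 (SD, n = 3 each). The difference of -10.9 percentage points was within the spread of the day 10 libraries (two-sided exact permutation test, p = 0.4, where 0.1 is the smallest p that 3 against 3 libraries allow), and it ran from -5.16 points without day 10 replicate 1 to -19.1 points without day 10 replicate 2. For the rRNAs alone the difference was also -10.9 points (exact p = 0.4; -6.1 and -17.9 points without the same libraries), and for the mRNAs the means were 3.64% ± 0.306 and 3.63% ± 2.22 (exact p = 1). In LPC day 10 replicate 1, the library of lowest share, 11.1% of counts were mitochondrial with a 95% Wilson interval of 11% to 11.1%, so the differences between libraries were far beyond counting error. In a bulk sample a smaller number of mitochondria, less RNA in each and more RNA from the nucleus cannot be told apart, nor can fewer cells of a type and less RNA per cell.

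**Figure D2:**
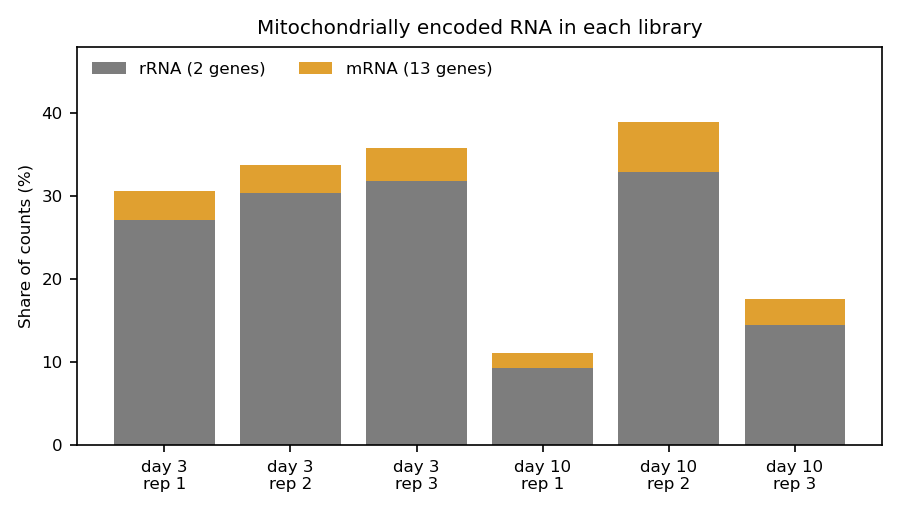
Percent of all counts in each library (bars) from the 2 mitochondrial rRNA genes (grey) and the 13 mitochondrial mRNA genes (yellow). The 3 day 3 bars reach 30.7% to 35.8%, while the day 10 bars reach 11.1%, 39% and 17.6%.

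Ratios within a library do not depend on how the libraries are scaled, and 3 of the 5 computed separated the time points. Of these, 1 (mt-Nd2 to mt-Nd1) was chosen after its values were seen. The other 2 both contain mt-Rnr1 and so are not independent. No background share was computed for ratios, so this count is description only. The mRNA to rRNA count ratio was 13%, 11.2% and 12.5% at 3 days against 18.6%, 18.5% and 21.3% at 10 days. Every day 10 library was above every day 3 library, including day 10 replicates 1 and 2, which lay at opposite ends of the range for mitochondrial share. The log2 ratio rose from a mean of -3.03 ± 0.12 to -2.36 ± 0.12 (SD, n = 3 each), a difference of 0.67 or 1.59-fold. The exact permutation p of 0.1 is the smallest this design allows (adjusted p = 0.167 over the 5 ratios computed). Those 5 include the ratio chosen after its values were seen, which makes this adjusted p too low. The difference exceeds the spread between libraries without being able to pass a threshold of 0.05.

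The 12S to 16S rRNA count ratio (mt-Rnr1 over mt-Rnr2) went the other way. It was 59.1%, 51.2% and 66.6% at 3 days against 36.2%, 39.2% and 40.5% at 10 days. All 3 day 10 libraries were below the lowest day 3 library. The log2 ratio had means of -0.77 ± 0.19 and -1.37 ± 0.08 (SD, n = 3 each), a difference of -0.60 or 0.659-fold. The exact permutation p was again the smallest possible (0.1, adjusted 0.167, too low for the same reason). Per kilobase of gene the ratio was 97.9%, 84.7% and 110% at day 3, near parity, and 60%, 65% and 67.2% at day 10. The genes are neighbours on the same precursor, separated only by mt-Tv, and neither has a 100-base window copied in an annotated nuclear transcript.

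Taken gene by gene, mt-Rnr1 had 89200, 101786 and 139941 CPM at 3 days against 17056, 89139 and 65592 CPM at 10 days. The groups did not overlap, but day 10 replicate 2 lay just below the lowest day 3 library. Its partner mt-Rnr2 had 150884, 198986 and 210123 CPM at 3 days against 47059, 227262 and 161806 CPM at 10 days, with replicate 2 above all day 3 libraries. The edgeR log2 fold change, day 10 against day 3, was -0.95 ± 0.55 (SE, adjusted p = 0.924) for mt-Rnr1 and -0.36 ± 0.52 (adjusted p = 0.999) for mt-Rnr2.

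**Figure D3:**
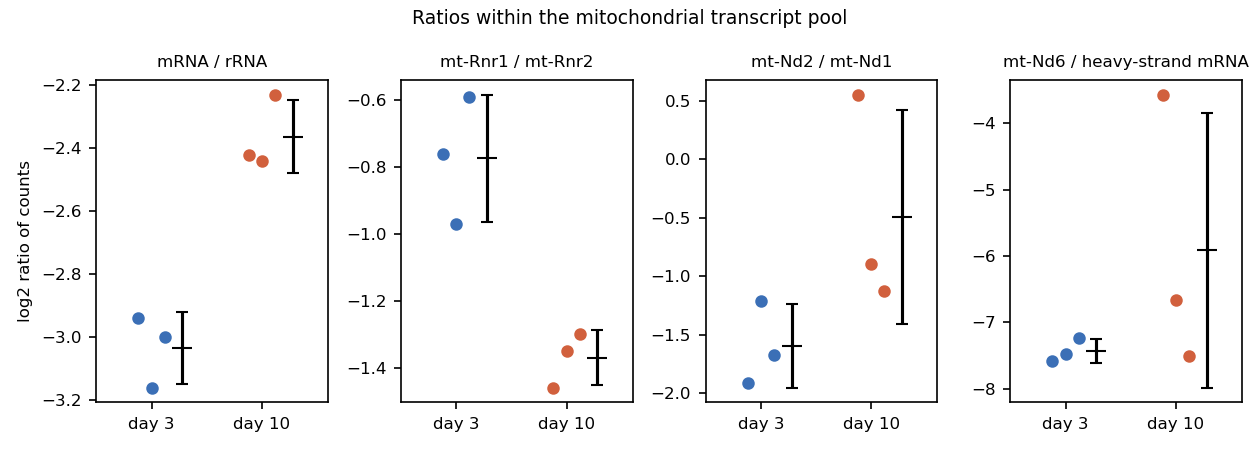
Log2 ratios of counts within each library (points; black marks give mean and SD of 3 libraries) for mRNA to rRNA, mt-Rnr1 to mt-Rnr2, mt-Nd2 to mt-Nd1 and mt-Nd6 to the summed heavy-strand mRNAs. The groups are separate in the first 3 panels, and in the last a single day 10 library lies at -3.57 with the other 5 between -7.59 and -6.66.

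Among the 7 tested mRNAs, mt-Co1 was highest and mt-Nd6 lowest per length in every day 3 library. In CPM per kb (without TMM scaling, the scale of the deposited FPKM values, which had the same group means), mt-Co1 (complex IV subunit I) had 8614 ± 839, mt-Cytb (complex III) 5707 ± 247, mt-Nd1 4296 ± 851, mt-Nd4 3644 ± 411, mt-Nd5 3217 ± 171, mt-Nd2 1297 ± 128 and mt-Nd6 408 ± 87.3 (SD, n = 3; the mt-Nd genes encode complex I subunits). The ranges of mt-Nd1, mt-Nd4 and mt-Nd5 overlapped from one to the next, and the other neighbours in this order did not. The rRNAs were at 118573 ± 9939 (mt-Rnr2) and 115504 ± 15278 (mt-Rnr1), and their ranges overlapped.

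The order was also computed per length free of annotated nuclear copies. Per kb of windows without a copy, the day 3 level of mt-Co1 was 12455 ± 1214 and that of mt-Nd4 9285 ± 1046. On that scale mt-Nd4 lay above mt-Cytb, whereas per kb of the whole gene it lay below. Whether reads from copied windows were counted was not tested. The order of the other 5 mRNAs was the same on either scale.

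Within the mRNA pool 2 genes had shares that did not overlap between the time points. The first, mt-Nd2, made up 3.4%, 4.05% and 3.66% of the counts of the 7 mRNAs at day 3 and 13.5%, 5.04% and 5.69% at day 10, with no overlap. The share of mt-Nd4 was 13.6%, 13.5% and 14.2% at 3 days against 9.58%, 13.3% and 13.4% at 10 days, also without overlap but with replicates 2 and 3 just below the day 3 range. Each had an exact permutation p of 0.1 (adjusted p = 0.35 over the 7 mRNAs), and the groups overlapped for the other 5. Without LPC day 10 replicate 3, 5 of the 7 shares did not overlap, those of mt-Nd2, mt-Nd5 and mt-Nd6 being higher and those of mt-Nd4 and mt-Cytb lower at day 10. Fewer libraries separate more readily, and shares of a single sum are tied to each other. In CPM with all 6 libraries, the groups did not overlap for 8.45% of all genes tested. No such background was computed for shares, so these counts are description only.

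Set against mt-Nd1, which lies upstream of it on the same strand with only tRNA genes between, mt-Nd2 had a count ratio of 26.7%, 43.4% and 31.4% at 3 days against 146%, 53.4% and 45.7% at 10 days. The pair was chosen after its values were seen, so its p-value is no support for a difference. All day 10 libraries were above all day 3 libraries, by 45.7% against 43.4% at the nearest, with a log2 difference of 1.10 (exact permutation p = 0.1, adjusted 0.167). Leaving out LPC day 10 replicate 1 brought the difference to 0.58.

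LPC day 10 replicate 1 had a more even mRNA profile than the other libraries, a measure chosen after its values were seen. The highest of the 7 mRNAs per length exceeded the lowest 23.2-, 22.3- and 18.9-fold at day 3, and 2.27-, 13- and 21.6-fold in day 10 replicates 1, 2 and 3. In 5 libraries mt-Co1 was highest and mt-Nd6 lowest. In day 10 replicate 1 the highest was mt-Nd5 at 2740 and the lowest mt-Nd4 at 1207 CPM per kb, and mt-Co1 stood at 1989. Per kb of windows without a nuclear copy the order within this library differed, with mt-Nd4 highest (3075) and mt-Nd1 lowest (1681), but the profile was again even, at 1.83-fold against 18.8- to 33.6-fold elsewhere. The coefficient of variation over the 7 mRNAs was 25.5% there and 68.4% to 71.7% elsewhere. The same library had the lowest mitochondrial share, the highest number of genes with a count (16013), the highest summed level of the chromosome 1 pseudogenes (40.3 CPM) and the highest oligodendrocyte marker sum (113 CPM). Their part in its profile was not tested.

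**Figure D4:**
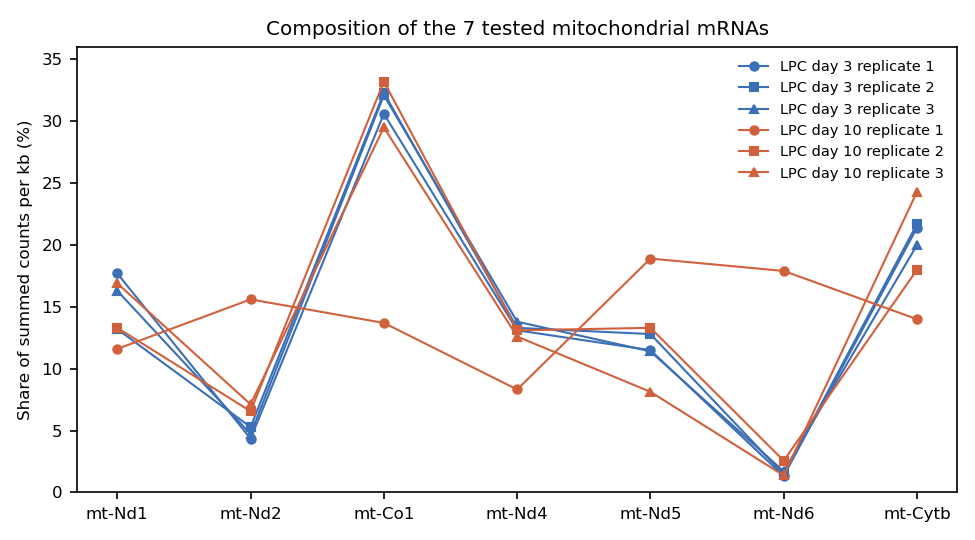
Share of the summed counts per kb of the 7 tested mRNAs (percent, vertical axis) taken by each mRNA in map order, with 1 line per library, blue for LPC day 3 and orange for LPC day 10. The line of LPC day 10 replicate 1 is flatter than the rest, with 13.7% at mt-Co1 and 17.9% at mt-Nd6, and the lines of the other 5 libraries peak at mt-Co1 (29.5% to 33.2%).

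The mRNA of the other strand, mt-Nd6 (chrM:13552-14070, minus strand), had the largest positive fold change of the 10 tested genes. It had 161, 187 and 290 CPM at 3 days against 930, 574 and 264 CPM at 10 days. Replicates 1 and 2 were above every day 3 library and replicate 3 lay among them. The edgeR log2 fold change was 1.47 ± 0.76 (SE, adjusted p = 0.851). Its ratio to the summed heavy-strand mRNA counts was 0.518%, 0.559% and 0.666% at 3 days against 8.44%, 0.992% and 0.549% at 10 days (log2 difference 1.53, exact permutation p = 0.3, adjusted 0.375). Without LPC day 10 replicate 1 this difference was 0.35. With the strand of the libraries not given, reads of mt-Nd6 and of heavy-strand RNA antisense to it cannot be told apart.

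None of the 10 tested genes was called by edgeR at an adjusted p under 0.05, and none had an unadjusted p under 0.05 (the lowest was 0.0616, for mt-Nd6). Over all 10535 genes 0.114% were called, all of them higher at day 10 (12 genes). The median log2 fold change of the 10 was 0.08. The 5 mRNAs mt-Nd1, mt-Co1, mt-Nd4, mt-Nd5 and mt-Cytb lay between 0.04 and 0.15, each with an SE of 0.60 to 0.64, and for all 5 the sign flipped under another scaling or tool or without 1 library. Of the 10, 1 was higher (mt-Nd2) and 1 lower (mt-Rnr1) at day 10 without overlap between groups, where 3.47% of all genes were higher and 4.97% lower in that way (8.45% in all).

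For mt-Nd2 the levels were 1063, 1360 and 1608 CPM at 3 days against 1614, 2946 and 2754 CPM at 10 days, the lowest day 10 library being just above the highest day 3 library. Its edgeR log2 fold change was 0.86 ± 0.64 (SE, adjusted p = 0.999). In simulated data in which every gene had the common biological coefficient of variation, edgeR called 0% of genes changed by 1, 2, 4 or 6 on the log2 scale. That single value was not fitted to the mitochondrially encoded genes. The size of change that edgeR could have called for them was therefore not tested.

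The call depended on the tool for mt-Rnr1. With limma-voom, it had a log2 fold change of -1.29 (adjusted p = 5.42e-06) and was the sole gene called of 10535 (0.00949%). With sample quality weights its log2 fold change was -0.99 (adjusted p = 1.51e-08), 1 of 3 genes called (0.0285%). Within day 10 mt-Rnr1 ran from 17056 to 89139 CPM, and its lowest day 3 value was 89200 CPM. These 2 limma-voom p-values are far smaller than that spread between libraries allows, so they are not read as support. DESeq2 called 63 of 8673 genes (0.726%), none of them mitochondrially encoded. The authors' deposited table, which gives day 3 minus day 10, lists a log2 fold change of 1.33 with an unadjusted p of 0.058 for mt-Rnr1. For mt-Nd6 the authors' deposited table lists -1.42 with p = 0.041, the sole p under 0.05 among the 10 genes.

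**Figure D5:**
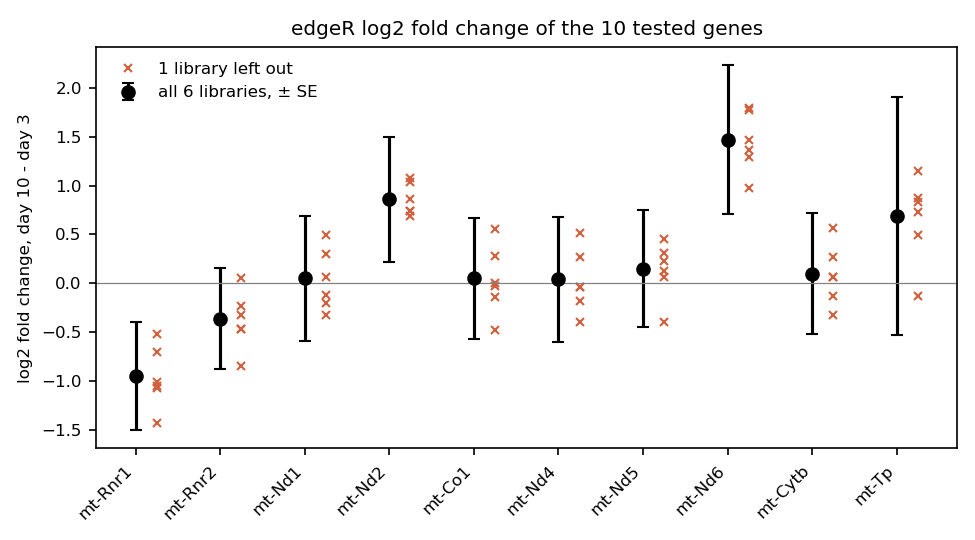
Log2 fold change of each tested gene, LPC day 10 against LPC day 3, from edgeR with 3 libraries per group (black points, bars ± SE) and with each library left out in turn (orange crosses). The crosses of mt-Rnr1 (-1.43 to -0.52), mt-Nd2 (0.69 to 1.08) and mt-Nd6 (0.97 to 1.79) stay on one side of 0, and those of the other 7 genes fall on both sides.

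The tRNAs were read through a single gene. They are 59 to 75 bases long, shorter than a read of 100 bases, and lie 32 bases or less from the next gene, overlapping it by up to 3. Of the 22, mt-Tp, the proline tRNA, had 1429 counts over the 6 libraries and mt-Tl1, a leucine tRNA, had 3. Both are printed whole, mt-Tp from chrM:15356-15422 (minus strand) and mt-Tl1 from chrM:2676-2750 (plus strand), as DNA letters of the mature part without the added CCA end.
mt-Tp: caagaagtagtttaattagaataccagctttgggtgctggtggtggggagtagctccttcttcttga
mt-Tl1: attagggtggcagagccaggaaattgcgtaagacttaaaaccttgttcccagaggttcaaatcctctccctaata

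Their surroundings on the map are as follows. No base separates mt-Tl1 from mt-Rnr2 before it or from mt-Nd1 after it, which are both deeply read. The gene mt-Tp directly follows mt-Tt, which is on the other strand and not in the count table, and is the last annotated gene of the map, next to the control region. At the other edge of the map mt-Tf was not in the count table. The part of position in these counts was not tested. For mt-Tp the levels were 17.1, 33.3 and 29.8 CPM at 3 days against 9.75, 40 and 79.7 CPM at 10 days, with overlap (edgeR log2 fold change 0.69 ± 1.22 SE, adjusted p = 0.999). Whether these reads are tRNA or precursor and control-region RNA cannot be told apart from the counts.

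Polyadenylation completes the stop codon of some mitochondrial mRNAs, and the annotated 3′ ends show which. The last 30 bases of mt-Nd4 (chrM:11515-11544), mt-Cytb (chrM:15259-15288) and mt-Co3 (chrM:9361-9390), all on the plus strand, end in 1 base beyond whole codons, in capitals, to which the added A tail supplies the rest. For comparison mt-Nd6 (chrM:13552-13581, minus strand) ends in a full stop codon, in capitals.
mt-Nd4: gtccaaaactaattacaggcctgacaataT
mt-Cytb: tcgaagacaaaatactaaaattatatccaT
mt-Co3: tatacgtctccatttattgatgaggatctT
mt-Nd6: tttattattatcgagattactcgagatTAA

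Nuclear genes that serve the mitochondrial genome were described from lists chosen with earlier results of these data known. None of their tested members was called by edgeR in either direction, where 0.114% of all genes were. The nuclear oxidative phosphorylation subunits (74 tested, 28 with a positive and 46 with a negative log2 fold change) had a median of -0.35, which ran from -0.81 (without day 10 replicate 1) to -0.09 (without day 3 replicate 3) and was 0.08 under limma-voom with quality weights. Their summed level was 1904, 1434 and 2357 CPM at 3 days against 1526, 1503 and 1430 CPM at 10 days, with overlap (exact permutation p = 0.3). The log2 ratio of mitochondrial mRNA counts to theirs was 4.04, 4.55 and 4.22 at day 3 and 2.97, 5.28 and 5.08 in day 10 replicates 1, 2 and 3 (difference 0.18, exact permutation p = 1). Single subunits went in both directions. Atp5b, the catalytic beta subunit of ATP synthase, had 539, 396 and 464 CPM at 3 days against 364, 310 and 50.6 CPM at 10 days, without overlap (log2 fold change -0.95 ± 0.79 SE, edgeR adjusted p = 0.999). Cox6c, a complex IV subunit, had 3.23 to 8.47 CPM at 3 days against 9.23, 33 and 433 CPM at 10 days (4.84 ± 1.26 SE, edgeR adjusted p = 0.111), with replicate 3 far above the rest. Ndufv2, a complex I subunit, had 3.02, 0.564 and 1.55 CPM at 3 days against 5.39, 22.4 and 47.7 CPM at 10 days, without overlap (3.86 ± 1.80 SE, edgeR adjusted p = 0.743). For Cox4i1, a complex IV subunit, the log2 fold change was -0.50 ± 1.49 SE, and for Ndufa4, another, -1.14 ± 1.97 SE (edgeR adjusted p = 0.999 for each).

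The transcription and replication list (14 tested) had a median log2 fold change of 0.06. Leaving out 1 library moved it to 1.42 (without day 3 replicate 1), 1.00 (without day 3 replicate 2) or -0.47 (without day 10 replicate 1), so it has no stable direction. Polrmt itself, the polymerase, had 8.18, 0.846 and 0 CPM at 3 days against 7.26, 1.39 and 0.533 CPM at 10 days, too few to order. Tfam, which packages the genome and activates its promoters, had 17.5, 22.1 and 3.11 CPM at 3 days against 6.33, 7.15 and 0.533 CPM at 10 days. For Twnk, the replicative helicase, the values were 3.31, 8.88 and 33.9 CPM at 3 days against 0.207, 2.45 and 0.533 CPM at 10 days, without overlap (edgeR log2 fold change -3.82 ± 2.01 SE, adjusted p = 0.863). Tfb1m, which methylates the 12S rRNA, pointed the other way with 0.779, 0.141 and 10.2 CPM at 3 days against 20.6, 4.69 and 63.2 CPM at 10 days, with overlap (2.99 ± 1.72 SE, edgeR adjusted p = 0.924). Polg, the DNA polymerase, was at 16.9 ± 13.2 CPM and 6.94 ± 5.39 CPM. Tfb2m, a transcription initiation factor, was at 10.8 ± 2.49 CPM at 3 days against 11.4 ± 9.83 CPM at 10 days, and the biogenesis coactivator Ppargc1a had 1 count in all libraries together.

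The genes of mitochondrial RNA processing and decay had the sole summed level that did not overlap among the 7 lists. It was 489, 348 and 440 CPM at 3 days against 497, 534 and 1176 CPM at 10 days. At the nearest, 497 CPM stood against 489 CPM. The exact permutation p of 0.1 is the smallest possible and was not adjusted over the 7 lists. No background share was computed for list sums, so this is description only. The median log2 fold change of 23 tested members was 0.56 (0.21 without day 10 replicate 2 to 0.85 without day 3 replicate 1). Trmt10c, a subunit of the nuclease that cuts the 5′ ends of the tRNAs, supplied 324 of the 1176 CPM in replicate 3 and had 1.76 and 7.68 CPM in the other day 10 libraries, against 1.56, 19.3 and 36.5 CPM at day 3. Tbrg4, of the FASTK family of mitochondrial RNA-binding proteins, had 6.72, 0.141 and 0.239 CPM at 3 days against 25.5, 1.71 and 93.3 CPM at 10 days, with overlap (edgeR log2 fold change 4.07 ± 1.73 SE, adjusted p = 0.638). Lrpprc, which stabilises the mitochondrial mRNAs, had 59.3, 45.3 and 113 CPM at 3 days against 93.1, 78.1 and 33.3 CPM at 10 days (edgeR log2 fold change -0.09 ± 1.00 SE, adjusted p = 0.999).

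Medians were 0.16 for the mitochondrial aminoacyl-tRNA synthetases (19 tested), 0.16 for the biogenesis regulators (12 tested) and -0.32 for the mitochondrial ribosomal proteins (55 tested). Leaving out 1 library turned the sign of each, with ranges of -0.79 (without day 10 replicate 1) to 0.21 for the synthetases and -0.23 (without day 10 replicate 1) to 0.39 for the regulators. That of the ribosomal proteins ran from -1.59 (without day 10 replicate 2) to 0.24 (without day 3 replicate 3). Gatb and Gatc, subunits of the amidotransferase that completes glutamine tRNA charging, had log2 fold changes of 2.97 ± 1.26 (SE, edgeR adjusted p = 0.633) and 1.65 ± 0.93 (adjusted p = 0.905), with 202 and 763 CPM in day 10 replicate 3 against at most 20 and 144 CPM in any other library. Among the regulators, Gabpb1, a subunit of nuclear respiratory factor 2, had 27.1, 59.8 and 47.9 CPM at 3 days against 17.5, 22.5 and 0.533 CPM at 10 days, without overlap (-1.73 ± 1.34 SE, edgeR adjusted p = 0.999). Prkaa1, a catalytic subunit of AMP-activated kinase, had 343 CPM in day 10 replicate 3 and 19.5 to 82.1 CPM elsewhere (1.32 ± 1.02 SE, edgeR adjusted p = 0.999). Mrpl10, a protein of the large mitochondrial ribosomal subunit, came nearest to a call (edgeR log2 fold change 7.07 ± 1.58 SE, adjusted p = 0.0512). It had 0.478 to 1.69 CPM at 3 days against 4.04, 1.92 and 433 CPM at 10 days, with LPC day 10 replicate 3 far above the rest. Mrpl17, of the same subunit, had 23.7, 22.1 and 292 CPM at 3 days against 13.9, 15.3 and 1.07 CPM at 10 days, without overlap (-3.47 ± 1.25 SE, edgeR adjusted p = 0.44). In day 10 replicate 3, 18 of the 55 ribosomal proteins and 18 of the 74 respiratory subunits had no count.

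Sensors of mitochondrial nucleic acids, which respond when such DNA or RNA reaches the cytosol, had a median log2 fold change of 0.66 (13 tested). Without LPC day 10 replicate 1, 2 or 3 the median was 0.23, 0.20 or -0.06. Aim2, an inflammasome sensor of double-stranded DNA, had 71.2, 74.2 and 191 CPM at 3 days against 64.1, 226 and 1905 CPM at 10 days (edgeR log2 fold change 2.71 ± 0.92 SE, adjusted p = 0.352). Ddx58 (RIG-I), an RNA sensor, had 47.5 to 84.1 CPM at 3 days against 86.9, 129 and 594 CPM at 10 days, without overlap (2.05 ± 0.90 SE, edgeR adjusted p = 0.673). Ifih1 (MDA5), a sensor of long double-stranded RNA, was at 133 ± 74 CPM and 92.7 ± 95 CPM, and Mavs, the adaptor of both RNA sensors on the mitochondrial surface, at 101 ± 113 CPM and 44 ± 5.12 CPM (SD, n = 3 each).

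RNAs of other kinds were measured beside the mitochondrial share. Malat1 and Neat1, which stay in the nucleus, took 0.196%, 0.341% and 0.242% of counts at day 3 and 0.403%, 0.277% and 0.576% at day 10. Nearly all of it was Malat1, and Neat1 was lowest in day 10 replicate 3 (2.93 CPM against 31 to 111 CPM elsewhere). Rn7sk and Rpph1, also nuclear, took 0.00488% to 0.00578% at day 3 and 0.00232%, 0.00252% and 0.0184% at day 10. Day 10 replicates 1 and 3, of the lowest mitochondrial shares, were thus the highest for the first pair, and the lowest and the highest for the second. Replication-dependent histone mRNA took 0.0171% to 0.0194% at day 3 and 0.0207%, 0.00872% and 0.0545% at day 10. Cytosolic ribosomal protein mRNA took 0.52% to 0.851% at day 3 and 1.13%, 0.756% and 0.238% at day 10, so those same libraries lay at its upper and lower ends. The part of these RNAs in the mitochondrial share was not tested.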

How the data were processed

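Per the labels, cDNA was made with the NuGEN Ovation RNA-seq System v2 and sequenced as paired reads. The genome build GRCm38 and the tools limma 3.30.8, edgeR 3.16.5, R 3.3.2 and STAR 2.5.2a are named, with no role, per the submitters' processing notes. Counting program, annotation release and strand: not given in the sources used here. What the authors deposited is raw counts per Ensembl gene, FPKM values with columns named by time point only (used by group), and, per gene, their own log2 fold change and unadjusted p-value.

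Symbols came from the FPKM table. Positions, lengths and transcript sequences came from GENCODE M21 (GRCm38). Genes kept by filterByExpr at a count minimum of 10 were tested for group with the quasi-likelihood test of edgeR 4.0.16 (R 4.3.3, TMM scaling), with Benjamini-Hochberg adjustment over 10535 genes. The SE is the absolute log2 fold change over the square root of F. CPM are TMM-scaled, and CPM per kb use unscaled totals. Single values per library were compared by two-sided exact permutation tests (scipy 1.17.1). Nuclear copies were searched with BLAST 2.17.0 (expect threshold 1e-10) and by exact 100-base windows on either strand, among annotated transcripts only. Intervals cover counting error only, since amplified reads are not independent molecules. The p-values of edgeR and of the permutation tests measure the spread between these 3 libraries per group. Those of limma-voom for mt-Rnr1 do not.

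On simulated data with a coefficient of variation of 0.2 edgeR called 74% of genes changed by 1 on the log2 scale, and 100% at 2, 4 and 6. Alternatives were other scalings, filters and tools (limma 3.58.1, DESeq2 1.42.0), a replicate block and leaving out each library. The named genes were all members, the 2 members of smallest p in each nuclear list, and a fixed set. The members and lists were chosen with earlier results of these data known.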

Additional observations from a re-analysis of the deposited data

How the results depend on the processing

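Of 481 values recomputed under alternatives, 54 had the opposite sign to the reported value, among them 16 medians of the nuclear lists. The number of mitochondrially encoded genes called was 0 in edgeR and 1 (mt-Rnr1) under limma-voom with or without quality weights. The mRNA to rRNA difference (log2 0.67) ran from 0.60 to 0.81 over all settings, and the mt-Rnr1 to mt-Rnr2 difference (-0.60) from -0.70 to -0.51.

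For mRNAs near 0 the sign turned. Under library-size scaling the log2 fold changes were -0.14 (mt-Nd1), -0.11 (mt-Co1), -0.12 (mt-Nd4) and -0.11 (mt-Cytb), and mt-Nd1 was -0.01 under upper-quartile scaling. Under limma-voom they were -0.38, -0.60, -0.44 and -0.40, and with quality weights -0.25, -0.28, -0.18 and -0.26, in the same gene order. Leaving out 1 library gave -0.32 to 0.49 for mt-Nd1, -0.48 to 0.56 for mt-Co1, -0.40 to 0.51 for mt-Nd4, -0.40 to 0.45 for mt-Nd5, -0.32 to 0.57 for mt-Cytb, -0.85 to 0.05 for mt-Rnr2 and -0.13 to 1.15 for mt-Tp. The cause was not tested.

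The difference in total mitochondrial share (-10.9 points) ran from -19.1 to -5.16 leaving out 1 library, and that in rRNA share from -17.9 to -6.1. The difference in mRNA share (-0.00699 points) was 0.336 with TMM effective library sizes and ran from -1.23 to 0.941 leaving out 1 library. The mRNA to nuclear subunit difference ran from -0.24 to 0.91 leaving out 1 library. The number of mRNA shares without overlap ran from 2 to 5. Calls among nuclear subunits were 1 without the low-count filter and 1 in DESeq2, and 0 to 1 leaving out 1 library, as for the sensors. Calls among ribosomal proteins were 1 without the filter, 1 with mitochondrial counts out of the library sizes, and 0 to 2 leaving out 1 library.

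Replicate numbers are shared by the groups. Over genes, deviations of a day 3 and a day 10 library correlated at -0.0805 to 0.0733 over all pairs, near 0 throughout. Same-numbered libraries had r = 0.0733, the highest, then -0.0351 and 0.00727 (replicates 1, 2 and 3). Replicates 1 and 3 of day 3 correlated best with their own number, and day 3 replicate 2 with day 10 replicate 3 (0.0631). With the replicate block, the log2 fold changes were -0.23 (mt-Nd1), -0.44 (mt-Co1), -0.32 (mt-Nd4) and -0.25 (mt-Cytb), and 0 mitochondrially encoded genes were called. The smallest p of 3 pairs is 0.25.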
